A study of Mus musculus with 6 samples.

Results

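The mouse counterpart of the region deleted in human DiGeorge syndrome lies on chromosome 16, and this account covers the 44 RefSeq protein-coding genes that lie wholly between positions 17400000 and 19000000 of that chromosome in the build mm10, out of 21776 protein-coding genes used. The genes were chosen by position alone, and they include Crkl, Dgcr2, Dgcr8, Tbx1 and Hira. The interval is 1.6 Mb long and ends below at Snap29 and above at Hira. The series mapped the chromatin remodeller CHD7 and acetylated lysine 27 of histone H3 (H3K27ac) by chromatin immunoprecipitation with sequencing (ChIP-seq) in neural crest cells sorted from the caudal pharyngeal arches of E10.5 mouse embryos. Embryos came from Wnt1-Cre2 males and mTmG females, in which Cre recombination switches cells to green fluorescent protein (GFP), and GFP-positive cells of pharyngeal arches 3 to 6 were collected by fluorescence-activated sorting. The groups were CHD7 ChIP, H3K27ac ChIP and input chromatin, with 2 libraries each, all from cells of that same cross. Wnt1-Cre2 marks the neural crest lineage, so the sort was aimed at that lineage and not at arch endoderm, mesoderm or ectoderm. The purity of the sorted cells was not tested here.

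In humans the deletion disturbs development of the cardiac outflow tract, aortic arch arteries, thymus, parathyroid glands and palate, tissues that take shape in the pharyngeal arches. TBX1, a T-box transcription factor, is the gene of the region most studied for these defects, and in mouse embryos it acts largely in pharyngeal endoderm, ectoderm and mesoderm rather than in neural crest. CRKL is a signalling adaptor, HIRA a chaperone that deposits histone H3.3, and DGCR8 the partner of DROSHA in microRNA processing. CHD7 is an ATP-dependent remodeller mutated in CHARGE syndrome, whose heart and arch defects overlap with those of DiGeorge syndrome, and H3K27ac marks active promoters and enhancers.

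The stretches just before the annotated starts of 6 genes or gene pairs are shown because they stand for the different states found in the interval. They are RefSeq sequence of GRCm38.p6 (mm10), read 5′ to 3′ on the strand named, in lower case with each CpG in capitals. Hira and Mrpl40 start back to back and shared CHD7 and H3K27ac, and the bases between both starts are chr16:18876638-18876749 on the plus strand. Crkl (chr16:17451735-17451984, plus strand) had the strongest H3K27ac among the signalling genes, and Dgcr8 (chr16:18289252-18289418, minus strand) had CHD7 on both sides of its start. Ranbp1 and Trmt2a also start back to back, and their shared stretch (chr16:18248695-18248846, plus strand) stood beside H3K27ac of both libraries but CHD7 of library 2 alone. Cldn5 (chr16:18776597-18776846, plus strand) had CHD7 and no H3K27ac. Tbx1 has 2 annotated starts on the minus strand, preceded by chr16:18588900-18589149 and chr16:18590672-18590921, with no region of either antibody.
Hira and Mrpl40: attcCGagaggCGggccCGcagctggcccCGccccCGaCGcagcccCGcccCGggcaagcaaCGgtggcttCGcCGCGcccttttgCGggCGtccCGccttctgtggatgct
Crkl: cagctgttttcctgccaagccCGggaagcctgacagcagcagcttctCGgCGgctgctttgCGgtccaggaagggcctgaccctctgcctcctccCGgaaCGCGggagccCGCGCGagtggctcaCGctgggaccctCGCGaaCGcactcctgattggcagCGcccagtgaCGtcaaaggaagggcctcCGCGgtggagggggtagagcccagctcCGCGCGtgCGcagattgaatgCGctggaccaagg
Dgcr8: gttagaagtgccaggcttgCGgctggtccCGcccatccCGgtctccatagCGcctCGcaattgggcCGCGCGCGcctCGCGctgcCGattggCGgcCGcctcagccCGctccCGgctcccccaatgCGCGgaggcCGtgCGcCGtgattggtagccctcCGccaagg
Ranbp1 and Trmt2a: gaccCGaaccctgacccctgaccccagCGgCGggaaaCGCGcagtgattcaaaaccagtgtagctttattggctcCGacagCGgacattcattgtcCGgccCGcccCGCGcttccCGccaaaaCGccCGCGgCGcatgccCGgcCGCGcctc
Cldn5: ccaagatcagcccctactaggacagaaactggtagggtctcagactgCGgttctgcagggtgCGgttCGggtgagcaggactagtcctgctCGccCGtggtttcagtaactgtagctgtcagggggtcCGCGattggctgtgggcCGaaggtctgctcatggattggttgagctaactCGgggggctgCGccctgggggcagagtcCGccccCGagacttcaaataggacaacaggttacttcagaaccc
Tbx1, lower start: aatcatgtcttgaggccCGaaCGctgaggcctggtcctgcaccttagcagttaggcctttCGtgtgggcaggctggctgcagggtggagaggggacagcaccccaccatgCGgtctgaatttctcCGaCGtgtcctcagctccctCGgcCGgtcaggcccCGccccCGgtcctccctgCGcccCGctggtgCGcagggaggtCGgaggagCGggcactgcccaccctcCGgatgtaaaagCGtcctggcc
Tbx1, upper start: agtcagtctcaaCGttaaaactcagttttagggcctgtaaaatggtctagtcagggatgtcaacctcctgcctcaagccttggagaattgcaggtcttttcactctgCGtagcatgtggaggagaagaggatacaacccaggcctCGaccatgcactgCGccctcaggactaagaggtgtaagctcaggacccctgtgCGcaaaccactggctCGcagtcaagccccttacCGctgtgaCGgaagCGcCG
The shared stretch of Hira and Mrpl40 holds 15 CpGs in 112 bases and that of Ranbp1 and Trmt2a 19 in 152 bases. The Dgcr8 stretch holds 22 CpGs in 167 bases, and those of Crkl, Cldn5 and Tbx1 (lower, then upper start) hold 23, 12, 17 and 10 in 250 bases each.

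The deposited data were peak lists, 1 for each library, with a fold enrichment at the summit given by the authors' peak caller. A region was called where peaks of both libraries of a group overlapped, and a gene was counted as having it at an end when the region lay within 1 kb of either annotated end. No read counts come with the lists, library depth is therefore unknown, and a gene with no listed peak may lie under the caller's threshold rather than lack the protein or mark. Nothing in the labels ties the paired libraries to different litters or sorts, so the spread between a pair, and any p-value resting on it, may reflect technical variation alone. Genome-wide the CHD7 libraries held 31873 and 26927 placed peaks, the H3K27ac libraries 24283 and 22686, and the input libraries 451 and 512. In the interval the CHD7 libraries had 56 and 55 peaks, the H3K27ac libraries 54 and 47, and each input library 1. Peaks that overlapped one of the other library made up 66.1% and 65.5% of the CHD7 lists and 85.2% and 89.4% of the H3K27ac lists there. Interval peaks had median folds of 3.08 and 3.02 in the CHD7 libraries and of 3.91 and 3.95 in the H3K27ac libraries, and folds of different antibodies are not on a shared scale. Among marker genes listed for the expected and other cell types, CHD7 and H3K27ac regions lay at ends of 2 and 4 of 14 neural crest mesenchyme genes (CHD7 at Snai2 and Sox9; H3K27ac at Msx2, Prrx2, Sox9 and Twist1), and 9 of the 14 had neither, Sox10 and Tfap2a among them. These shares are below those of all protein-coding genes, of which 44.2% had CHD7 and 47.6% had H3K27ac. The same counts were 0 and 0 of 6 for cardiomyocytes, 3 and 0 of 6 for endothelium, 2 and 2 of 6 for blood, 1 and 2 of 6 for epithelium and endoderm, and 1 and 1 of 6 for mesoderm and skeletal muscle.

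The first question was which genes of the interval carried CHD7 and H3K27ac at their ends. CHD7 regions lay at an end of 25 of the 44 genes (56.8%), against 44.2% of all genes and 45.8% of the other 635 genes of chromosome 16. H3K27ac regions lay at an end of 31 genes (70.5%), against 47.6% of all genes and 47.6% of the other genes of the chromosome. Both were present at 22 genes (50%), against 39.3% of all genes, and neither at 10 genes (22.7%), against 47.5% of all genes. No interval gene had an input region at an end, against 0.0505% of all genes. The interval's shares with CHD7 and with H3K27ac were thus above those of the genome. Neighbouring genes are not independent, since 11 of the 24 CHD7 regions and 10 of the 29 H3K27ac regions at gene ends served several members at once.

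**Figure D1:**
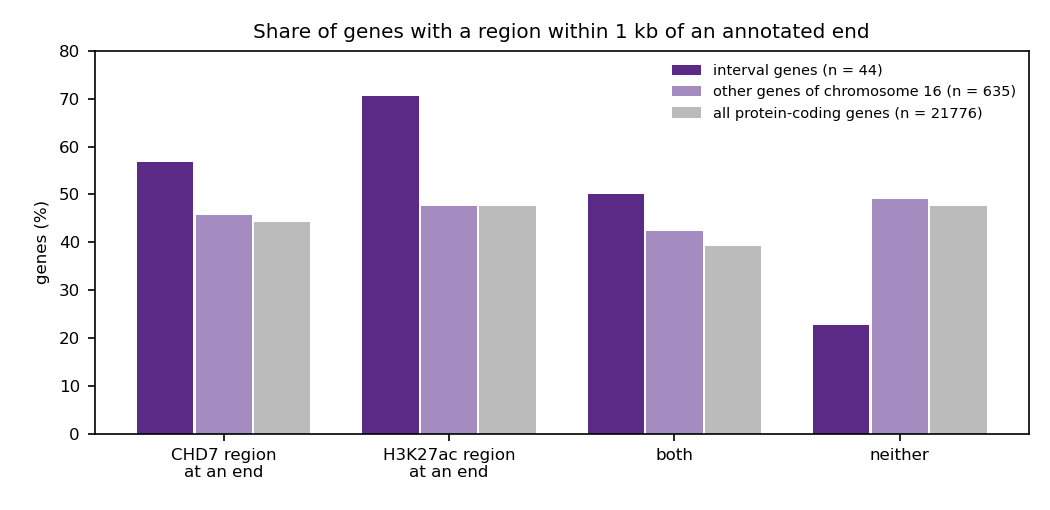
Shares of genes, in percent, with a CHD7 region, an H3K27ac region, both or neither within 1 kb of an annotated end, for the 44 interval genes, the other 635 genes of chromosome 16 and all 21776 genes. The interval bars stand above the other bars for CHD7, H3K27ac and both, and below them for neither (22.7% against 49% and 47.5%).

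Counted per library, 33 and 32 interval genes had a CHD7 peak at an end, 33 and 32 an H3K27ac peak, and 0 and 0 an input peak. The means were 32.5 ± 0.707 genes for CHD7 and 0 ± 0 for input (SD, n = 2 each), a difference of 32.5. The exact permutation p was 0.333 (two-sided), the smallest that 2 against 2 libraries allow, and the input lists were far shorter than the ChIP lists over the whole genome, so a difference in this direction was to be foreseen. The H3K27ac libraries gave the same 32.5 ± 0.707 genes, the same difference from input and the same exact permutation p of 0.333. The CHD7 and H3K27ac counts were equal (difference 0, exact permutation p = 1, two-sided, n = 2 each). When only peaks with −log10 q of 10 or more were kept, CHD7 regions were left at the ends of 4 genes (Smpd4, Slc25a1, Cdc45 and Ufd1), 9.09% of the interval against 10.6% of all genes, and H3K27ac regions at 18 genes, 40.9% against 28.3%. The higher share of the interval was thus kept by H3K27ac but not by CHD7 among the strongest peaks, and the interval's CHD7 regions were mostly of moderate strength, with median folds of 3.27 and 3.33 against 3.45 and 3.41 for all CHD7 regions.

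**Figure D2:**
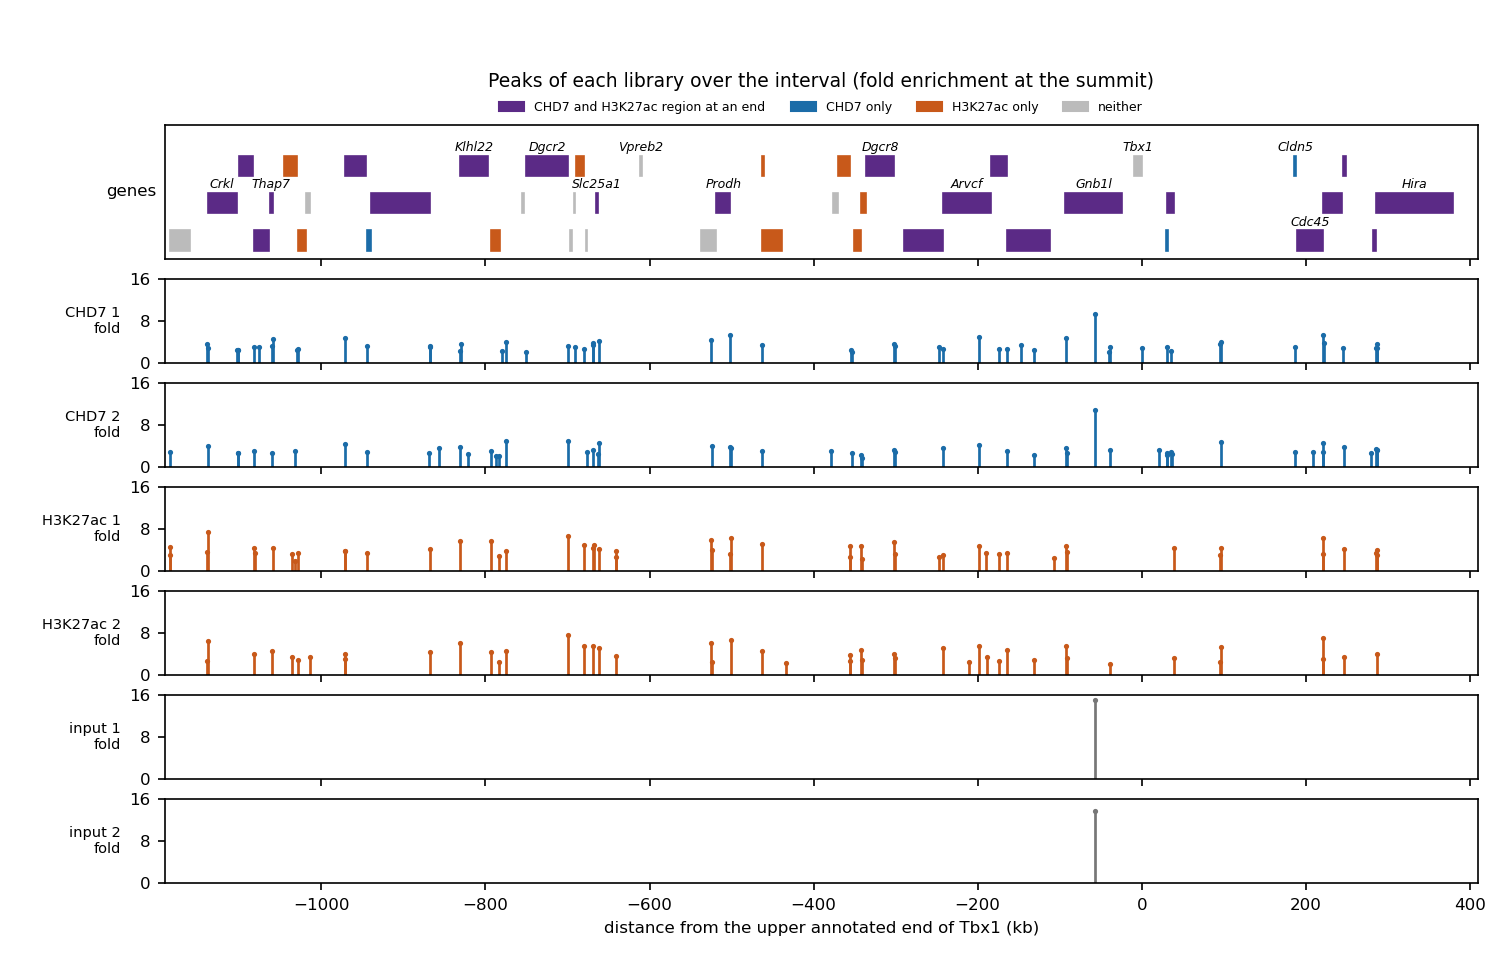
Map of the interval with its 44 genes coloured by the regions at their ends, above the peaks of each of the 6 libraries as stems at their summits, with fold enrichment on the vertical axis and distance from the upper end of Tbx1 in kb on the horizontal axis. CHD7 and H3K27ac stems stand over most of the interval, and the single input peak of each input library (folds 15.1 and 13.8) stands at the tallest CHD7 stem.

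The transcription and chromatin genes were divided, with CHD7 and H3K27ac together at 3 of 5 (Thap7, Med15 and Hira) and neither at Gsc2 and Tbx1. Hira (18876750 to 18970309, plus strand) had 3 CHD7 regions at the end it shares with Mrpl40, a gene of the mitochondrial ribosome. The CHD7 region nearest to the Hira start (18876701 to 18877286) had folds of 3.62 and 3.21 in libraries 1 and 2, a mean of 3.41 ± 0.293 (SD, n = 2), and lay at the 47.9th percentile of all 19947 CHD7 regions. A single H3K27ac region of 2159 bp (18876150 to 18878308) spanned both starts, with folds of 4.05 and 3.97. Thap7, which encodes a THAP-domain repressor, had a CHD7 region inside the gene (3.34 and 2.62) under an H3K27ac region that ran over its start (4.50 and 4.58). CHD7 library 1 had a further peak of fold 4.55 just beyond the Thap7 end that library 2 lacked. Med15, a Mediator subunit, had CHD7 folds of 3.27 and 2.65 and H3K27ac folds of 4.13 and 4.44. Gsc2, a homeobox gene related to goosecoid, had a CHD7 peak in library 2 alone (fold 2.84) and no H3K27ac peak.

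All 4 genes of RNA handling and the ribosome had H3K27ac, and CHD7 lay at Dgcr8 and Mrpl40. Dgcr8 (18253948 to 18289251, minus strand) had CHD7 on both sides of its start, inside the gene with folds of 3.67 and 3.29 (mean 3.48 ± 0.272) and upstream with 3.3 and 2.84 (mean 3.07 ± 0.328; SD, n = 2 each). Each was overlapped by an H3K27ac region, with folds of 5.58 and 3.95 inside and 3.20 and 3.33 upstream. Both antibodies thus left a gap over the CpG-rich stretch upstream of Dgcr8, between the paired regions. Ess2, a spliceosome-associated gene, had H3K27ac folds of 5.04 and 5.49 and CHD7 peaks in library 1 alone (highest fold 2.99). Trmt2a, a tRNA methyltransferase gene, and Ranbp1, a regulator of the RAN GTPase, had H3K27ac folds of 4.87 and 4.76 at their shared start and a CHD7 peak in library 2 alone (2.36).

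Crkl had the strongest H3K27ac of the signalling genes, while Gnb1l and Klhl22 had CHD7 regions of higher mean fold. The libraries differed in this, since in CHD7 library 2 Crkl (4.11) was above Klhl22 (3.93) and Gnb1l (3.68). The Crkl H3K27ac region over the start (17451981 to 17452934) had folds of 7.55 and 6.45, a mean of 7.0 ± 0.775 (SD, n = 2), at the 95.7th percentile of all 17756 H3K27ac regions. The CHD7 region there (17452037 to 17452734) had folds of 2.91 and 4.11, a mean of 3.51 ± 0.854, at the 52.8th percentile of CHD7 regions. By these regions the same gene was near the top for H3K27ac and in the middle for CHD7. CHD7 library 1 had a further, stronger peak just before the start (17451463 to 17451841, fold 3.61) that library 2 lacked, and the rank leaves it out. Klhl22, which recruits targets to the CUL3 ubiquitin ligase, had CHD7 folds of 3.61 and 3.93 and H3K27ac folds of 5.74 and 6.13. Lztr1, a CUL3 adaptor that limits RAS proteins, had CHD7 folds of 3.1 and 3.01 and H3K27ac folds of 4.44 and 4.12, and its regions lay within 1 kb of the end of its neighbour Aifm3. Gnb1l, a WD-repeat gene, had CHD7 folds of 4.85 and 3.68 and H3K27ac folds of 4.87 and 5.63 at its start. Rtn4r, the Nogo receptor, and the overlapping gene model Gm52241 had H3K27ac folds of 5.25 and 4.56, while their CHD7 peaks, 3.53 in library 1 and 3.08 in library 2, did not overlap each other. The testis kinase genes Tssk1 and Tssk2 had no region, and a CHD7 peak of fold 2.99 in library 1 lay between the ends of Tssk2 and Ess2.

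Of the 7 mitochondrial and metabolic genes, 6 had both CHD7 and H3K27ac, against 39.3% of all genes, and 1 had neither. Prodh, proline dehydrogenase, had the highest CHD7 fold of this role in library 1, with 5.34 and 3.79 (mean 4.57 ± 1.10, SD, n = 2). Its H3K27ac folds were 6.29 and 6.75, but that region began at 18089234, just above the CHD7 region that ended at 18089230, so the pair adjoined without overlap. Single libraries reached over that border, with a CHD7 library 2 peak of fold 3.74 inside the H3K27ac region and an H3K27ac library 1 peak of fold 3.18 over the CHD7 region. Slc25a1, the mitochondrial citrate carrier, had overlapping regions of 4.14 and 4.52 for CHD7 and 4.24 and 5.14 for H3K27ac. Tango2 shares its start with the catenin gene Arvcf, where CHD7 had folds of 2.67 and 3.70 and H3K27ac 3.13 and 5.15. These regions were stronger in library 2 for both antibodies. Txnrd2, mitochondrial thioredoxin reductase, had CHD7 folds of 2.79 and 3.02 and H3K27ac folds of 3.45 and 4.76. Aifm3, of the apoptosis-inducing factor family, had 2 further CHD7 regions before its start, with means of 2.55 ± 0.185 and 2.58 ± 0.172 (SD, n = 2 each) and no H3K27ac overlap. Slc7a4, a member of an amino acid transporter family, had an H3K27ac peak in library 2 alone (3.39) and no CHD7 peak.

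CHD7 without an H3K27ac region lay at the ends of 3 of the 44 interval genes (6.82%). Of all 21776 genes, 9618 had CHD7 and 8567 of these had H3K27ac as well. Membrane, trafficking and cytoskeleton genes held 2 of the 3. Cldn5, the tight junction gene of endothelium, had a CHD7 region over its start (18776794 to 18777754) with folds of 3.05 and 2.95 (mean 3.00 ± 0.0675, SD, n = 2) and no H3K27ac peak in either library. Cldn5 is itself one of the 3 endothelial markers with CHD7, with Erg and Kdr, and none of the 6 endothelial markers had H3K27ac; a part of other cells in these regions was not tested. Gp1bb, platelet glycoprotein Ib beta, and Septin5, a septin of the cytoskeleton, overlap each other. They shared a CHD7 region (3.01 and 2.61) that lay inside Gp1bb, 50 bp from the lower end of Septin5. H3K27ac lay at the other end of Septin5 (4.34 and 3.34). The third gene with CHD7 alone was Ccdc74a, a coiled-coil gene, with CHD7 folds of 3.28 and 2.92 and an H3K27ac peak in library 1 alone (3.42). Scarf2, a scavenger receptor gene, had a CHD7 peak in library 2 alone (3.07) and H3K27ac folds of 5.68 and 4.46. Zdhhc8, a palmitoyltransferase gene, had CHD7 in library 1 alone (2.46) and H3K27ac folds of 4.83 and 3.88. A CHD7 peak of a single library thus stood beside H3K27ac of both. P2rx6, an ATP-gated channel subunit, and its neighbour Lrrc74b had H3K27ac folds of 3.51 and 2.94 and a CHD7 peak in library 1 alone (2.77). Snap29, a SNARE of membrane fusion, had 1 peak of each antibody, CHD7 in library 2 (2.90) and H3K27ac in library 1 (4.67).

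By mean fold, the strongest CHD7 region at a gene end was that shared by Cdc45 and Ufd1. Cdc45 is a part of the replicative helicase and Ufd1 a cofactor of the segregase VCP. Prodh was higher in library 1 (5.34) and Dgcr2 in library 2 (4.98). The shared region covered the starts of Cdc45 and Ufd1 (18811170 to 18812923). It had folds of 5.31 and 4.68, a mean of 5.0 ± 0.445 (SD, n = 2), at the 92.7th percentile of CHD7 regions. H3K27ac over the same starts had folds of 6.31 and 7.10, a mean of 6.70 ± 0.556, at the 94.2nd percentile. This pair was thus high for both antibodies. Smpd4, a sphingomyelinase gene, had the reverse of the Crkl pattern, with CHD7 folds of 4.77 and 4.45 at the 88.2nd percentile and H3K27ac folds of 3.91 and 3.99 at the 46.8th. Dgcr2, which encodes a membrane protein with adhesion receptor features, had the H3K27ac region of highest mean fold in the interval (17890933 to 17891667). Its folds were 6.79 and 7.61 (mean 7.20 ± 0.581, SD, n = 2), and Crkl was higher in library 1 (7.55). The Dgcr2 CHD7 folds were 3.19 and 4.98 (mean 4.08 ± 1.26, SD, n = 2). The Dgcr2 CHD7 region differed most between the libraries among the interval's 34 CHD7 regions, by 0.642 on the log2 scale. 2510002D24Rik, an uncharacterised gene, had CHD7 folds of 2.93 and 3.78 and H3K27ac folds of 4.24 and 3.39.

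**Figure D3:**
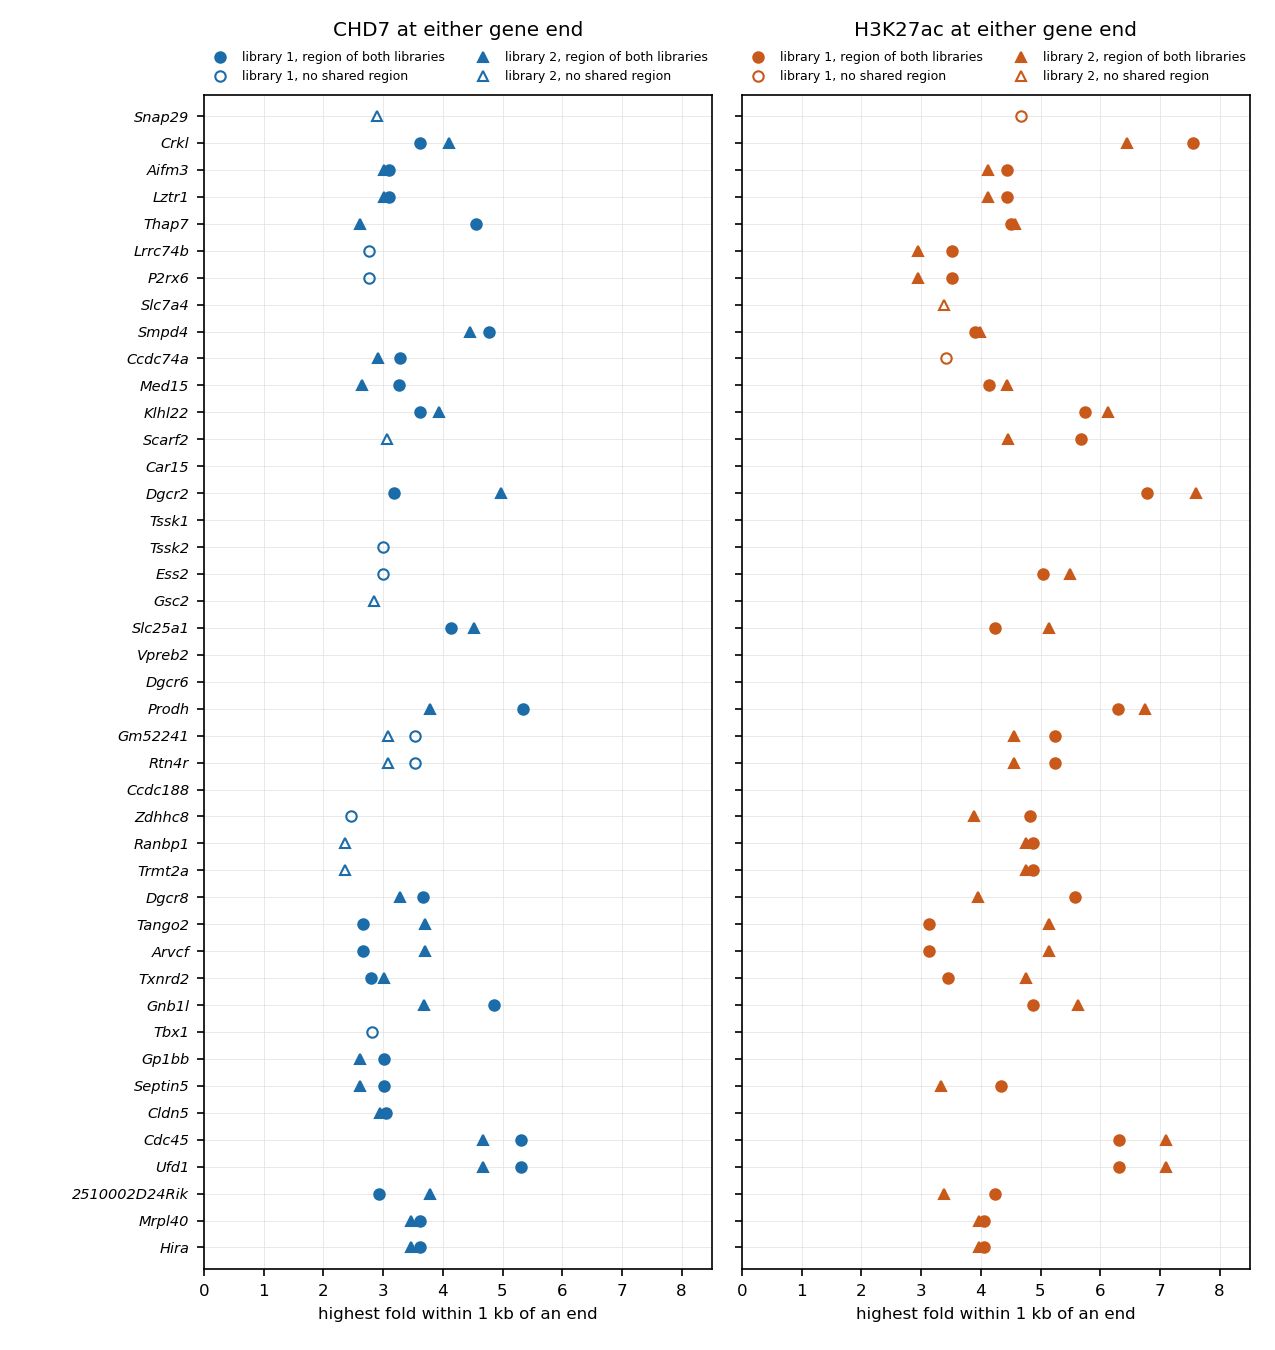
Highest fold enrichment of any peak within 1 kb of an end of each plotted interval gene in genomic order, CHD7 on the left and H3K27ac on the right, circles for library 1 and triangles for library 2, filled where the gene has a region of both libraries. No CHD7 value exceeds 5.34 (Prodh, library 1), and H3K27ac reaches 7.61 (Dgcr2, library 2).

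Of the 19 interval genes with no CHD7 region at an end, 6 had a peak in library 1 alone, 5 in library 2 alone, 2 (Rtn4r and Gm52241) in both without overlap, and 6 had none. The 9 genes with H3K27ac and no CHD7 region all had a CHD7 peak in some library, against 71.2% of the 1805 such genes in the genome. Ends with no peak in any ChIP library belonged to 5 genes, namely Car15, a carbonic anhydrase, Tssk1, the B-cell surrogate light chain gene Vpreb2, Dgcr6 and the coiled-coil gene Ccdc188. Dgcr6 was empty only at its annotated ends. A second start of it, at 18066403 inside the gene, lay under a CHD7 region (4.39 and 4.10) and an H3K27ac region (5.97 and 6.14). When the 41 members with an annotated start in the RefSeq promoter table were scored at starts instead of ends, 24 had CHD7 (58.5%, against 45.4% of 17492 genes) and 28 had H3K27ac (68.3%, against 49.7%).

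Tbx1 itself (18580979 to 18590671, minus strand) had no region of either antibody. CHD7 library 1 had a peak of fold 2.82 and −log10 q of 5.34 at 18591336 to 18591852, 665 bp upstream of the upper end, and library 2 had no peak there. The nearest peak of CHD7 library 2 on that side lay 21136 bp from the gene (18611807 to 18612260, fold 3.26). A CHD7 peak next to Tbx1 was thus called in library 1 and not in library 2. No H3K27ac peak lay within 1 kb of Tbx1 in either library, and the nearest H3K27ac regions were 38.7 kb away at Septin5 and 81.6 kb away in Gnb1l. The stretch between them, 130 kb without an H3K27ac region, was the longest of 5 such stretches over 100 kb in the interval. It held Tbx1, Gp1bb and 4 CHD7 regions, the strongest of which covered the input peaks of the interval. The stretches of 115 kb about Vpreb2 and 107 kb about Ccdc188 held 0 CHD7 regions. Those about Ccdc74a (102 kb) and Cldn5 (123 kb) held 1 each.

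**Figure D4:**
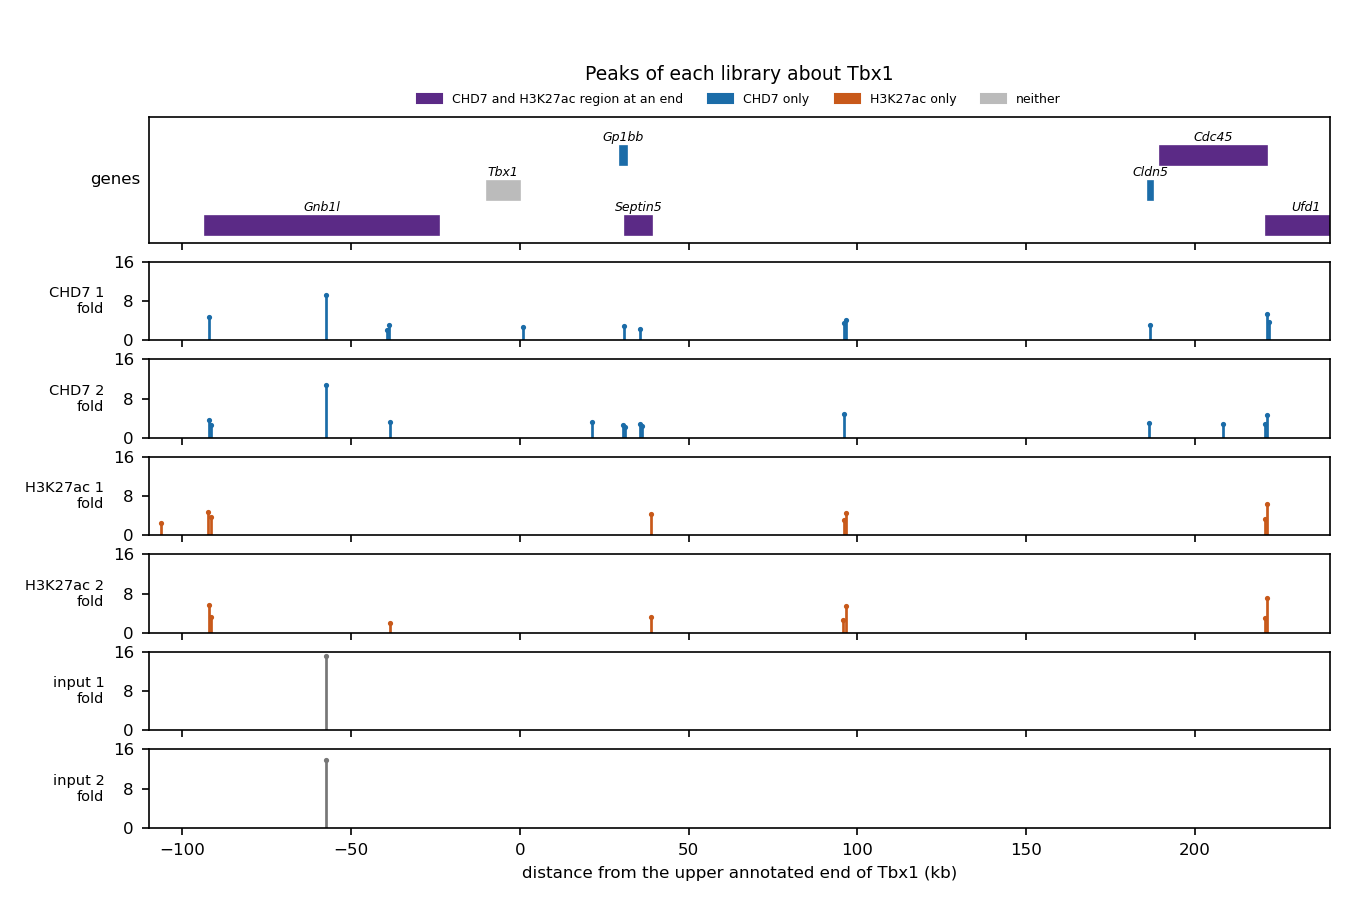
The stretch about Tbx1 drawn as in the map of the whole interval, with distance from the upper end of Tbx1 in kb and fold enrichment for each of the 6 libraries. Between the H3K27ac regions in Gnb1l and at Septin5 stands 1 H3K27ac stem, of library 2 only and inside the body of Gnb1l. CHD7 library 1 alone has a stem next to Tbx1, and the tallest CHD7 stems stand at the input peaks.

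Of the 34 CHD7 regions of the interval, 24 lay at gene ends, 6 in gene bodies and 4 between genes, so 10 were distal (29.4%, against 48.9% of all CHD7 regions). Of the 41 H3K27ac regions, 29 lay at gene ends, 7 in gene bodies and 5 between genes, and 12 were distal (29.3%, against 36.8%). Distal regions thus made up a smaller share of the interval's regions than of all regions for both antibodies. These are shares of regions, not numbers per length of sequence. H3K27ac overlapped 23 of the 34 CHD7 regions (67.6%, against 60.4% of all), and CHD7 overlapped 24 of the 41 H3K27ac regions (58.5%, against 66.8%). At gene ends, 18 of 24 CHD7 regions overlapped H3K27ac (75%, against 80.4%) and 17 of 29 H3K27ac regions overlapped CHD7 (58.6%, against 72%). Interval CHD7 regions with H3K27ac had median folds of 3.61 and 3.70 in libraries 1 and 2, and those without it 3.01 and 2.91. Across the interval's regions, the folds of libraries 1 and 2 had a Spearman rho of 0.621 for CHD7 (n = 34 regions, Pearson r 0.858) and 0.768 for H3K27ac (n = 41, Pearson r 0.813). These are descriptions over regions that share their libraries. The CHD7 set includes the region that covered the input peaks, with folds of 9.33 and 10.8, far above its other regions. Neither coefficient was computed without that region, and Pearson r is sensitive to such a value.

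Distal CHD7 regions with H3K27ac numbered 5. In gene bodies they were 2 of 6 CHD7 regions (33.3%, against 44.3% of all CHD7 regions in gene bodies). The other 3 lay between genes, out of 4 CHD7 regions there (75%, against 34.9% of all). One lay 6.91 kb beyond the upper end of Scarf2 (17815203 to 17816029), with CHD7 folds of 3.95 and 5.04 and H3K27ac folds of 3.87 and 4.65. Another lay 3.35 kb from Slc25a1 towards Gsc2 (17921089 to 17921865), with CHD7 folds of 3.82 and 3.3 and H3K27ac folds of 5.07 and 5.56. The last lay 56.2 kb beyond Septin5 and 95.5 kb from Tbx1 (18686175 to 18687630), with CHD7 folds of 4.07 and 4.83, and it bridged a pair of H3K27ac regions of 3.16 and 2.55 and of 4.49 and 5.42. All 3 lay above the median of CHD7 regions, at the 86.2nd, 55.1st and 85.5th percentiles. Of the others, one covered the inner start of Dgcr6 described above, and one covered the third annotated start of Arvcf (18392541 to 18393294), with CHD7 folds of 5.01 and 4.30 and H3K27ac folds of 4.76 and 5.52. That inner Arvcf start was stronger for CHD7 than the outer start shared with Tango2 in both libraries.

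The 5 distal CHD7 regions without H3K27ac differed in strength. The strongest CHD7 region of the interval (18533005 to 18533519, in the body of Gnb1l, 47.5 kb from Tbx1) had folds of 9.33 and 10.8, a mean of 10.1 ± 1.07 (SD, n = 2), at the 99.6th percentile. It covered the only input peaks of the interval, which had folds of 15.1 and 13.8 and widths of 105 and 120 bp, so its signal was also present without the CHD7 antibody. A second region in Gnb1l, 28.4 kb from Tbx1 (18551728 to 18552601), had folds of 3.1 and 3.21 and no input peak, and H3K27ac had a peak there in library 2 alone. The other 3 were weak, in Txnrd2 (18459588 to 18460296, 2.59 and 2.35, with an H3K27ac peak of fold 2.93 in library 2 alone), in Septin5 (18626139 to 18626615, 2.37 and 2.91) and 1.67 kb from Zdhhc8 (18236824 to 18237714, 2.03 and 2.79). They lay at the 3.78th, 7.78th and 2.76th percentiles of CHD7 regions. Distal H3K27ac regions without CHD7 lay, among other places, in the bodies of Lrrc74b, Arvcf and Gnb1l and 21.5 kb from Slc25a1, with mean folds between 3.08 ± 0.671 and 3.47 ± 0.308 at these sites (SD, n = 2 each).

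About the annotated starts, regions of both antibodies covered the start more often than they lay to a side. Of 27 starts with a CHD7 region within 1 kb, 15 lay inside the region (55.6%, against 42.6% of all such starts), 7 had CHD7 on the gene side alone, 3 on the upstream side alone and 2 on both sides. For H3K27ac, 19 of 31 starts lay inside the region (61.3%, against 54.4%), 6 had it on the gene side, 3 upstream and 3 on both sides. Of 61 and 54 CHD7 summits within 1 kb of a start in libraries 1 and 2, 3 and 4 lay within 100 bp of it, and of 64 and 54 H3K27ac summits, 2 and 3 did. The summits were spread to both sides, with 49.2% and 57.4% of the CHD7 summits and 56.2% and 53.7% of the H3K27ac summits on the gene side. A summit near both starts of a close pair was counted for each start. The summit counts were not set beside the genome or beside an even spread over the window, so whether summits avoided the start was not tested.

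**Figure D5:**
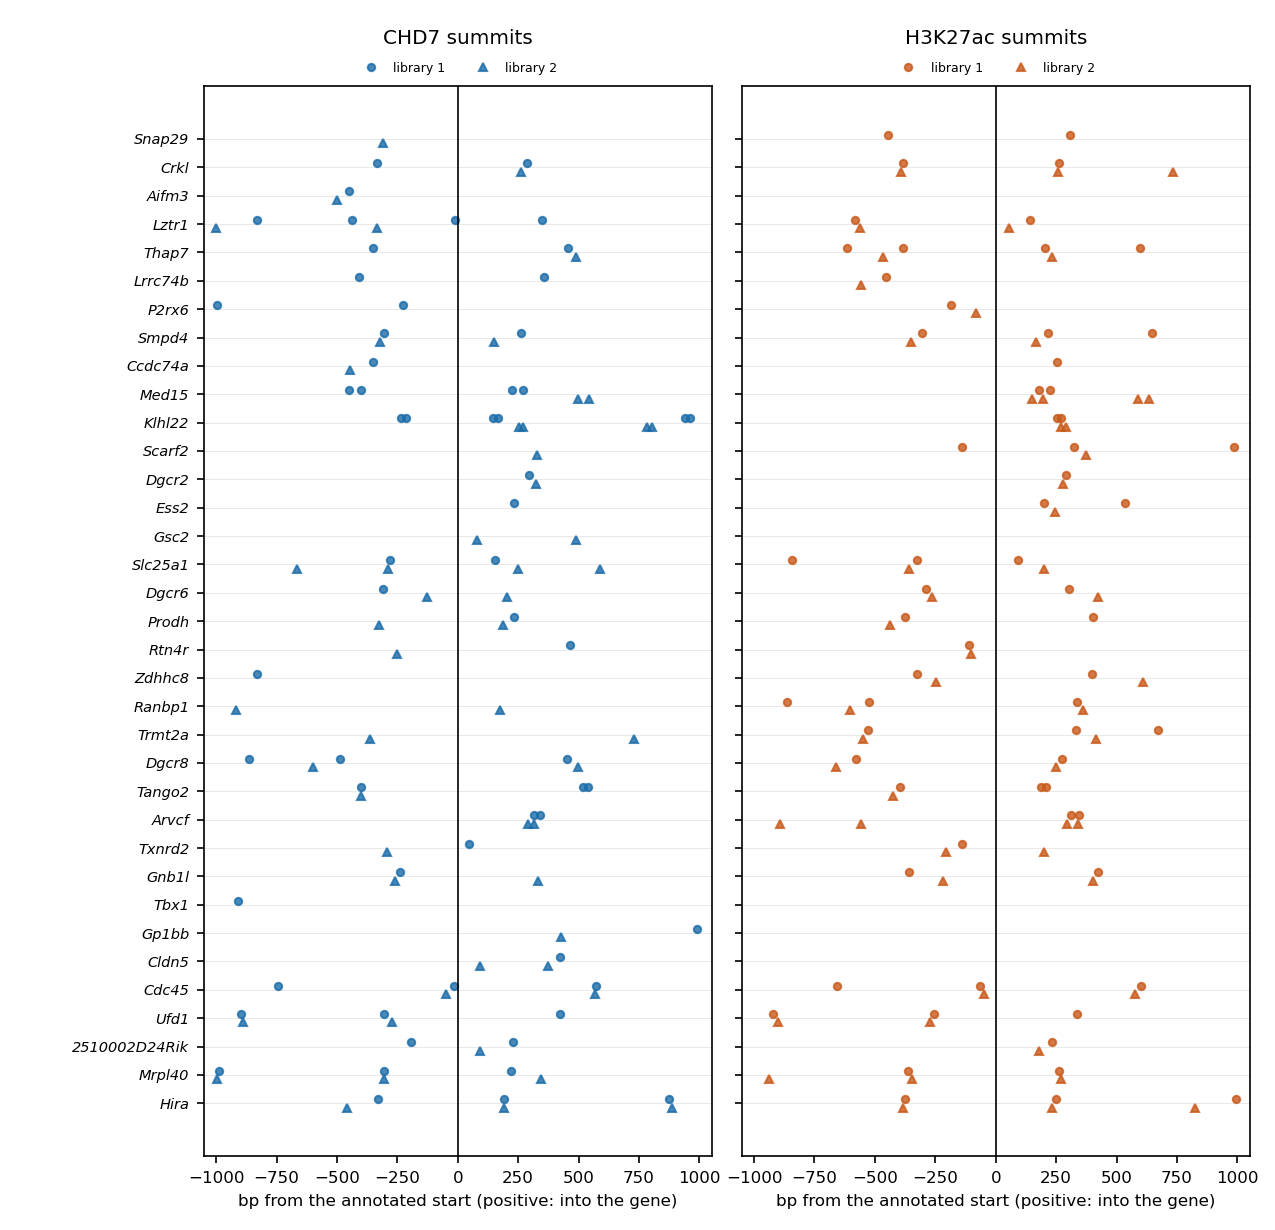
Position of every CHD7 (left) and H3K27ac (right) summit within 1 kb of an annotated start, in bp with positive values into the gene, for each interval gene that has one, circles for library 1 and triangles for library 2. Summits within 100 bp of the start number 3 and 4 for CHD7 and 2 and 3 for H3K27ac, and genes with several starts show each summit once per start.

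The windows from 250 bases before to 50 bases after the annotated starts, 49 windows of 41 members, held a median of 17 CpGs (range 1 to 47), against 13 in all 21263 windows of the genome. The 35 windows with a region of either antibody at that start held a median of 19 CpGs, and the 14 without held 6, against 22 and 4 in the genome. Windows at the low end were those of Vpreb2 with 1 CpG and of Tssk1, Gm52241 and Ccdc188 with 2 each, all without a region at that start, while the next lowest, that of P2rx6 with 3 CpGs, had an H3K27ac region. The Tbx1 windows held 26 and 16 CpGs and had no region. Other windows rich in CpG also lacked a region at that start, among them those of Snap29 with 33, Gsc2 with 24 and the inner Tango2 starts with 28 and 26. Searched on both strands, the GC box GGGCGG was found in 32 of the 49 windows (65.3%, against 46.2% of all windows), CCAAT in 20 (40.8%, against 38.2%) and TATAAA in 4 (8.16%, against 12.6%), the last at P2rx6, Gsc2, Cdc45 and Ufd1. Overlapping windows of a gene or of a close pair share bases and were counted separately.

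The known partners of these genes elsewhere in the genome were examined in the same way, in lists drawn up with earlier results of these data known. Of 8 genes of the HIRA and H3.3 pathway, 6 had CHD7, 7 had H3K27ac and 0 had neither. Atrx, a remodeller of H3.3 deposition, was the strongest of them with CHD7 folds of 5.51 and 6.69 and H3K27ac folds of 9.66 and 9.11. Cabin1 and Ubn2 had H3K27ac without a CHD7 region. Both had CHD7 peaks at an end in libraries 1 and 2 that did not overlap, with highest folds of 4.33 and 3.35 at Cabin1 and 2.62 and 3.53 at Ubn2. Of 8 microRNA processing genes, 7 had both, among them Drosha (CHD7 3.98 and 4.07; H3K27ac 5.83 and 5.56), and Tarbp2 had neither. Of 10 genes of CRKL signalling, 7 had CHD7 and 8 had H3K27ac. Crk, the closest relative of Crkl, had CHD7 folds of 3.56 and 4.03 and H3K27ac folds of 7.96 and 6.57, and Pxn had no peak. All 5 genes of the UFD1 and VCP group had both, including Vcp with CHD7 folds of 4.50 and 4.82. In each of these groups the counts came to larger shares than the 44.2% and 47.6% of all genes with CHD7 and H3K27ac.

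The 28 genes linked to TBX1 in the pharyngeal arches and outflow tract stood lower, with CHD7 at 8, H3K27ac at 8 and neither at 18. Among those with CHD7 were Aldh1a2, Eya1, Foxc2, Hes1, Kmt2d, Smad7 and Vegfa, of which Aldh1a2, the retinoic acid synthesis enzyme, and Hes1, a NOTCH target, had no H3K27ac peak. Their CHD7 folds were low, with 2.63 and 2.29 at Aldh1a2 and 2.14 and 2.34 at Hes1. Eya1, a transcriptional coactivator and phosphatase, had CHD7 folds of 3.41 and 2.91 and H3K27ac folds of 3.16 and 3.20. Kmt2d, a histone H3K4 methyltransferase, had 3.24 and 2.78 for CHD7 and 4.67 and 3.90 for H3K27ac. Fgf8, Isl1, Nkx2-5, Shh and Hand2 were among the genes with no peak of either antibody at an end.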

How the data were processed

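CHD7 ChIP, H3K27ac ChIP and input chromatin were sequenced in 2 libraries each. Per the submitters' processing notes, the tools were MACS2 2.1.2, Picard, Bowtie2 2.3.3.1 and bcl2fastq 2.18.0.12, on the build mm10. The authors deposited 1 peak list for each library, in which fold enrichment is a ratio over the peak caller's background at the summit. The deposited lists give the p-value and q-value of each peak as −log10, an integer score made from the q-value, and the summit's offset. Any use of input as the control of the calls is not stated in the sources used here. List rows that share an interval were merged, keeping the highest fold, and chromosomes 1 to 19, X and Y were kept. Overlap meant at least 1 bp, an end the span within 1 kb of an annotated gene end, and distal any other region. Of 21887 RefSeq protein-coding genes, 111 with coordinates of unplaced sequence (starting below 3000000, or 500000 on Y) were left out. Starts came from the RefSeq promoter table, which lacked 3 members, Septin5 and Slc7a4 among them. Values of 1 member and of 1 gene of the pathway lists are not reported here. By rule, members with a region are named with values, other members by state, and outside the interval genes of 5 pathway lists and 6 marker lists. The members follow from position, but the interval and the lists were chosen with earlier results of these data known. Counts per library were compared by exact permutation, and counts over genes were set beside the genome without a test. Scripts ran in Python 3.11.15 with numpy 2.4.6 and pandas 2.3.3 and were tested on simulated data with planted peaks. Alternatives were peak strength, regions of either library, other end distances and overlaps, and single libraries.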

Additional observations from a re-analysis of the deposited data

How the results depend on the processing

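Of 96 alternative values, 67 were within 1.5 times the value reported or of the same direction, 29 moved and 0 reversed. Keeping only peaks with −log10 q of at least 10 left 4 genes with CHD7, 18 with H3K27ac and 3 with both, 6 CHD7 regions (3 distal, 3 with H3K27ac) and 18 H3K27ac regions (4 distal), and CHD7 minus H3K27ac libraries gave -16 genes (exact permutation p = 0.333). The 10000 peaks of lowest q left 7, 20 and 6 genes, 11 CHD7 regions (5 distal, 8 with H3K27ac), 19 H3K27ac regions (4 distal) and a difference of -9.5. CHD7 then lay at 15.9% of interval genes against 20.2% of all genes, so its share was no longer above the genome's. Regions of either library gave 38 genes with CHD7, 72 CHD7 regions (27 distal, 43 with H3K27ac) and 20 distal H3K27ac regions. With ends widened to 2.5 kb the difference was 1.5. With single libraries, interval CHD7 regions numbered 55 to 56, those with H3K27ac 34 to 35 and the distal ones 18 to 20, since overlap between libraries was no longer required. Ends of 500 bp, annotated starts in place of ends, and an overlap required relative to the shorter region moved no count past that factor. With the replicate number as a block, the differences were 32.5 and 32.5 from input (exact p = 0.5 each) and 0 between antibodies (exact p = 1). The libraries share only a number, with a correlation of deviations of 0.00436 over 12051 regions. Unknown depth limits every absence: a gene with no peak may lie under the caller's threshold. The causes of these shifts were not tested beyond what each setting removes by construction.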

Other observations

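At the lower edge of the interval, Pi4ka, a phosphatidylinositol kinase gene, runs across position 17400000 (17280351 to 17406314) and overlaps the lower end of Snap29. It had the same single-library peaks as Snap29, CHD7 in library 2 (fold 2.90) and H3K27ac in library 1 (4.67), and no region. Serpind1, the first gene wholly below the edge, and Olfr164, an olfactory receptor gene and the first gene above the interval (19285794 to 19286741), had no peak at an end in any library.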
